A study of Mus musculus with 15 samples.

Results

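The insulin receptor, its adaptors and the FoxO factors were followed across 5 culture conditions of mouse growth plate chondrocytes. The genes were the receptors Insr and Igf1r, the adaptors Irs1 and Irs2, the phosphoinositide 3-kinase (PI3K) subunit Pik3r1, its inhibitor Pik3ip1, the phosphatase Ptpn13, the transcription factors Foxo1 and Foxo3, and Sesn3. They were chosen by name with earlier results of these data known, so their counts are a description, and every probe set that the platform annotation gave to 1 of these symbols alone was taken, 27 probe sets of 45101 on the array for 10 genes of 18194. Of the 27, 21 reached a mean signal of 50 in at least 1 group and were tested. The remaining 6 belonged to Insr, Igf1r (2 probe sets), Ptpn13, Foxo1 and Foxo3, so every gene kept at least 1 probe set in the test.

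Primary chondrocytes came from the tibiae, femurs and humeri of CD1 mouse embryos at E15.5, were grown as monolayers, and were treated for 24 hours in medium with ascorbic acid and β-glycerophosphate. The 5 groups of 3 arrays each were DMSO, the vehicle, LY294002 at 10 µM, an inhibitor of PI3K, UO126 at 10 µM, an inhibitor of MEK1/2, SB202190 at 10 µM, usually described as an inhibitor of p38, and TSA (trichostatin A), an inhibitor of histone deacetylases, whose dose is not given here because its unit could not be read from the labels. Each inhibitor was compared with DMSO to ask which genes change in its presence. The activity of the inhibited pathways was not measured on these arrays. All 4 comparisons with DMSO use the same 3 control arrays, so their results are not independent of each other. The cultures carried no genetic change. They hold all cells released from the digested long bones, and in such bulk samples fewer cells of a type and less RNA per cell cannot be told apart.

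Insulin and insulin-like growth factors bind the receptor tyrosine kinases encoded by Insr and Igf1r, which phosphorylate the IRS adaptors, which in turn recruit PI3K. The lipid that PI3K makes activates Akt, and Akt phosphorylates FoxO factors and keeps them out of the nucleus. In many cells active FoxO raises the transcription of receptors and adaptors of the same pathway, a feedback that Akt restrains while PI3K is active, and insulin-like growth factor signalling is a known stimulus of chondrocyte growth in the growth plate.

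All 12 chondrocyte markers examined, among them Col2a1, Acan and Sox9, had mean signals of at least 50 in every group. Their summed signal was 20042 to 30837 on the DMSO arrays, 26540 to 34904 with LY294002, 28115 to 39043 with UO126, 19966 to 23715 with SB202190 and 11400 to 13022 with TSA. Of 7 endothelial markers Pecam1, Cdh5, Tek, Flt1, Emcn and Cldn5 were under 50 in every group and Kdr averaged 53.5 to 71.6, whereas 7 of 8 fibroblast and osteoblast markers were on the array and all 7 were above it. Of 9 skeletal muscle markers 8 averaged at least 50 in DMSO, 6 with LY294002 and 2 with TSA. Of 6 adipocyte markers on the array Adipoq and Cidec were under 50 in every group, and 4 averaged at least 50 in DMSO, among them Fabp4 (606) and Lpl (538). The summed adipocyte markers were 1287 to 1345 in DMSO, 862 to 1131 with LY294002, 1451 to 1991 with UO126, 1808 to 2133 with SB202190 and 1015 to 1334 with TSA, and their part in the changes of the 10 genes was not tested.

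The promoters of the IRS pair are shown because Irs1 passed the test with LY294002 and Irs2 with TSA, while both windows held the same 2 short motifs. The sequences are the 250 bases before the annotated start of each gene in RefSeq for GRCm38.p6, printed 5′ to 3′ on the gene's strand, and 9 of the 10 genes had an entry, all but Insr. Capitals mark TGTTTTG, a form of the insulin response sequence, and CACGTG, the E-box. The Irs1 window lies at chr1:82291440-82291689 on the minus strand and the Irs2 window at chr8:11008930-11009179 on the minus strand.
Irs1: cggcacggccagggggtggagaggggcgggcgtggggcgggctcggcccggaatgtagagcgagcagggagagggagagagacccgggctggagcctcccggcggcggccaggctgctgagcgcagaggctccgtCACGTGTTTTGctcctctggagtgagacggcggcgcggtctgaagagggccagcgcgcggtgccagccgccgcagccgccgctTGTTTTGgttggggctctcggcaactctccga
Irs2: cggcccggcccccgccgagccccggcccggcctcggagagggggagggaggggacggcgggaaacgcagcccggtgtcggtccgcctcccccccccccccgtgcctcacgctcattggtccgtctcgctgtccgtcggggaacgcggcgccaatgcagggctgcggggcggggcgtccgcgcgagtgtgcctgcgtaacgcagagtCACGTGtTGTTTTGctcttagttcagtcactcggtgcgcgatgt
In Irs1 the E-box began 115 bases before the start and ran into TGTTTTG, which began at 111, and a second TGTTTTG began at 32. In Irs2 the E-box began 44 bases before the start and TGTTTTG began at 37, after 1 base in lower case. Searched on both strands, TGTTTTG occurred in 5.56% and CACGTG in 6.02% of all 32851 promoter windows of this length, and both in 0.3%. No other gene with an entry held either motif. TGTTTAC, the core of the FoxO family site, occurred in 3.17% of all windows and in none of the members' windows. The E-box was added to the search after these sequences had been read, and a match of letters is a description and not a binding site.

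With LY294002, 4 of the 10 genes rose and 0 fell against DMSO, where 5.63% of the 11751 genes tested rose and 3.84% fell. The genes that rose were both receptors, Insr and Igf1r, the adaptor Irs1 and the phosphatase Ptpn13, by 1.39-fold to 2.13-fold. Over probe sets 5 of 21 rose, against 4.45% of all 21765 tested, and 0 of 21 fell, against 3.33%. Neither FoxO factor passed the test, and the values of the kinase subunit Pik3r1, its inhibitor Pik3ip1 and Sesn3 were slightly lower than in DMSO without passing it. The median log2 change of the 10 genes was 0.36, beside 0.01 over all genes tested. With the replicate number as a block the same count of 5 probe sets rose, while the count over the whole array went from 1693 to 3057.

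**Figure D1:**
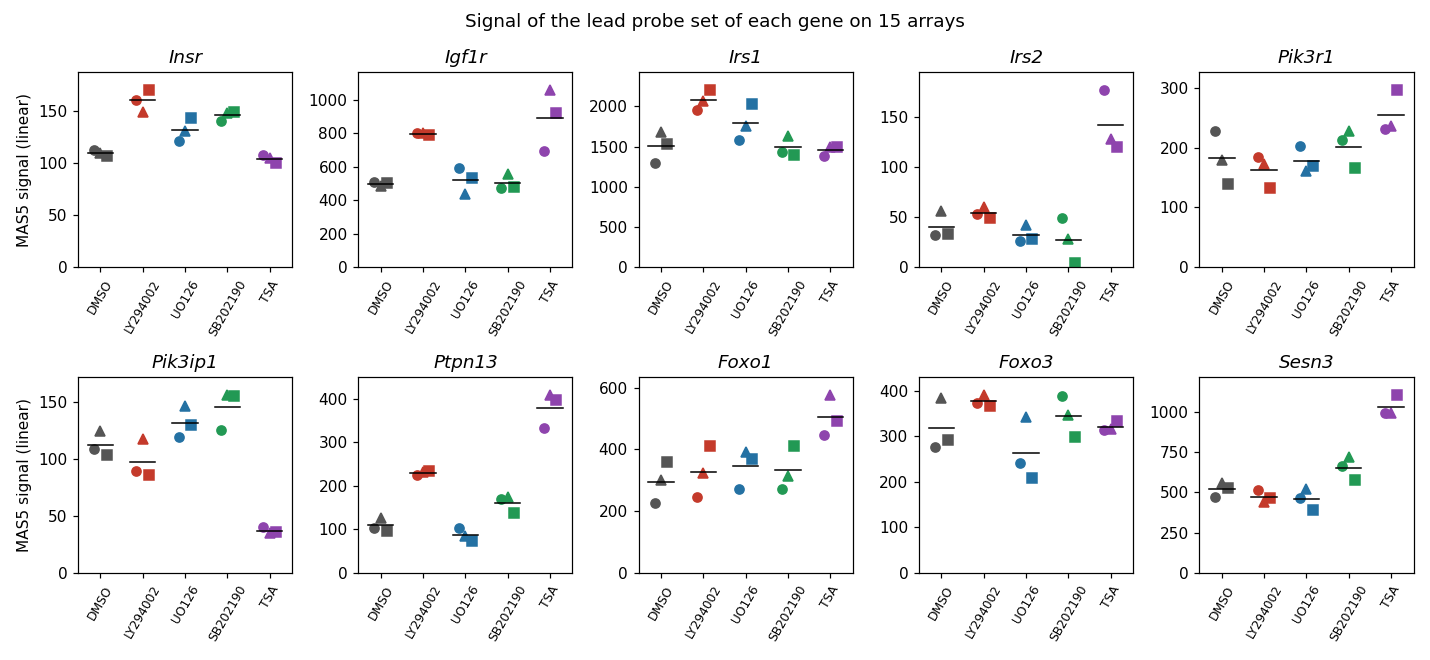
MAS5 signal of the lead probe set (the tested probe set with the highest mean) of each gene on a linear axis, with 1 point per array, circles, triangles and squares for replicates 1, 2 and 3, and a bar at the mean of 3 arrays. The LY294002 points of Insr, Igf1r, Irs1 and Ptpn13 lie above all DMSO points, and the TSA points of Pik3ip1 lie below all others. Signals of different genes come from different probes and cannot be compared.

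Insr encodes the insulin receptor. Its lead probe set (1434446_at) read 112, 110.2 and 107 on the DMSO arrays and 161, 149 and 171 with LY294002. The signal was 122, 131 and 143 with UO126, 141, 149 and 149 with SB202190, and 108, 105 and 100.3 with TSA. Every array of LY294002, UO126 and SB202190 was above every DMSO array, while the TSA arrays overlapped them. The log2 change with LY294002 was 0.54 ± 0.11 (SE, limma adjusted p = 0.00633), a 1.46-fold rise. With SB202190 it was 0.41 ± 0.11 (limma adjusted p = 0.0477), and with UO126 0.26 ± 0.11 (limma adjusted p = 0.255), which missed the threshold. The rise with SB202190 was close to the threshold, and it was lost in quantile normalized data (adjusted p = 0.0539) and without any 1 of the 6 arrays compared.

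The second tested probe set of Insr (1450225_at) did not show the rise with LY294002 or SB202190. It read 38.7, 76.3 and 57.3 in DMSO and 35.6, 36.9 and 59.6 with LY294002, a log2 change of -0.37 ± 0.28 (limma adjusted p = 0.466). The LY294002 and DMSO arrays overlapped, and the 95% interval of the change, -0.97 to 0.24, does not include the rise of 0.54 measured with the lead probe set. With SB202190 the second probe set changed by -0.18 ± 0.28 (limma adjusted p = 0.836) and with UO126 by 0.43 ± 0.28 (limma adjusted p = 0.56). The third, 1421380_at, stayed between 6.2 and 20.0 on all 15 arrays and was not tested.

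Igf1r encodes the receptor for insulin-like growth factor 1. Its lead probe set (1452982_at) read 509, 484 and 501 in DMSO and 801, 800.1 and 793 with LY294002. It read 591, 436 and 531 with UO126, 472, 557 and 478 with SB202190, and 695, 1062 and 921 with TSA. All LY294002 and TSA arrays were above all arrays of the other 3 groups, and the TSA arrays spread widely around the LY294002 level. The log2 change was 0.68 ± 0.13 with LY294002 (limma adjusted p = 0.00713), 0.05 ± 0.13 with UO126 (limma adjusted p = 0.928), 0.01 ± 0.13 with SB202190 (limma adjusted p = 0.989) and 0.82 ± 0.13 with TSA (limma adjusted p = 9.34e-05).

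A second Igf1r probe set, 1428967_at, rose likewise, from 149.7, 146 and 132 in DMSO to 257, 246 and 257 with LY294002 and 249, 252 and 291 with TSA. Its log2 changes were 0.83 ± 0.13 (limma adjusted p = 0.00179) and 0.89 ± 0.13 (limma adjusted p = 2.79e-05). The third, 1426565_at, read 229, 232 and 282 in DMSO and 359, 327 and 281 with LY294002, and its groups overlapped, with a log2 change of 0.38 ± 0.15 (limma adjusted p = 0.139). With TSA that probe set had a log2 change of 0.36 ± 0.15 (limma adjusted p = 0.0551). The 3 tested Igf1r probe sets therefore had the same sign with both inhibitors, and 2 of them passed the test with each.

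Irs1 encodes the adaptor that links both receptors to PI3K, and it had 1 probe set on the array (1423104_at). The signal was 1289.8, 1678 and 1537 in DMSO and 1955, 2065 and 2207 with LY294002. With UO126 it was 1575, 1753 and 2032, with SB202190 1431, 1636 and 1401, and with TSA 1383, 1496 and 1492. The LY294002 arrays lay above all DMSO arrays, and 1 UO126 array reached into their range. The log2 change with LY294002 was 0.47 ± 0.11 (limma adjusted p = 0.0165), a 1.39-fold rise, which missed the threshold without replicate 2 (adjusted p = 0.0502) or replicate 3 (adjusted p = 0.0597) of LY294002. With UO126 the value was 0.25 ± 0.11 (limma adjusted p = 0.307), with SB202190 -0.01 ± 0.11 (limma adjusted p = 0.989) and with TSA -0.04 ± 0.11 (limma adjusted p = 0.801).

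Irs2, the second widely expressed adaptor, also had 1 probe set (1443969_at), and it was dim. It read 32.3, 56.5 and 33.0 in DMSO, 53.3, 60.4 and 49.3 with LY294002, 25.8, 41.9 and 28.0 with UO126, and 49.1, 28.1 and 4.35 with SB202190. With TSA it read 178, 128 and 121, above every other array of the study. The log2 change with TSA was 1.84 ± 0.60 (limma adjusted p = 0.0164), and since the DMSO mean was under 50 its size is imprecise. The call was lost without replicate 1 of TSA (adjusted p = 0.0581). With LY294002 the change was 0.47 ± 0.60 (limma adjusted p = 0.689), with a 95% interval from -0.81 to 1.74 that includes the change of Irs1.

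Pik3r1 encodes the regulatory subunit p85α, which docks PI3K to the phosphorylated IRS proteins. Its lead probe set (1425514_at) read 227, 179.7 and 139.6 in DMSO, 183, 173 and 132 with LY294002, 202, 161 and 169.8 with UO126, and 212, 227 and 166 with SB202190. With TSA it read 231, 235 and 297, just above the highest DMSO array. The log2 change with TSA was 0.50 ± 0.18 (limma adjusted p = 0.0303), and it missed the threshold without DMSO replicate 2 (adjusted p = 0.0613), DMSO replicate 3 (adjusted p = 0.159) or TSA replicate 3 (adjusted p = 0.127). The other 3 tested probe sets had changes with TSA of 0.42 to 0.54 and none passed. Of these, 1425515_at averaged 57.5 with TSA and under 50 in every other group. It entered the test only through TSA, so its direction with TSA carries no information. With LY294002 the 4 tested probe sets had log2 changes between -0.41 and -0.15, and none passed.

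Pik3ip1 encodes a membrane protein that binds the PI3K catalytic subunit and lowers its activity. The lead probe set (1428332_at) read 109, 124 and 103 in DMSO, 89.4, 118 and 85.6 with LY294002, 119, 146 and 129 with UO126, 125, 156 and 155 with SB202190, and 40.0, 34.8 and 35.9 with TSA. The TSA arrays were below all other arrays, and the SB202190 arrays were above those of DMSO. The log2 change with TSA was -1.60 ± 0.16 (limma adjusted p = 4.34e-07), a 3.04-fold fall. It was -0.21 ± 0.16 with LY294002 (limma adjusted p = 0.437) and 0.37 ± 0.16 with SB202190 (limma adjusted p = 0.243). The second probe set, 1439087_a_at, fell by 1.17 ± 0.24 on the log2 scale with TSA (limma adjusted p = 0.000812) and had a change of -0.46 ± 0.24 with LY294002 (limma adjusted p = 0.272). Its LY294002 arrays (37.3, 41.9 and 51.2) were all below its DMSO arrays (57.0, 70.0 and 51.7). Both probe sets averaged under 50 with TSA, so the size of the fall is imprecise.

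Ptpn13 encodes a large non-receptor tyrosine phosphatase, reported to act on components of insulin and PI3K signalling. Its lead probe set (1452127_a_at) read 103, 126 and 96.1 in DMSO, 224, 231 and 233 with LY294002, 103, 85.1 and 71.5 with UO126, 168, 174 and 136 with SB202190, and 334, 409 and 396 with TSA. The LY294002, SB202190 and TSA arrays each lay above all DMSO arrays, and the TSA arrays above all others. The log2 change was 1.09 ± 0.15 with LY294002 (limma adjusted p = 0.000763), the largest of the 10 genes with that inhibitor, and 1.81 ± 0.15 with TSA (limma adjusted p = 7.51e-08), a 3.52-fold rise. With SB202190 it was 0.56 ± 0.15 (limma adjusted p = 0.0566), and with UO126 -0.33 ± 0.15 (limma adjusted p = 0.333). The SB202190 value passed without replicate 3 of SB202190 (adjusted p = 0.0464). The other Ptpn13 probe set stayed under 50 on every array and was not tested.

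Foxo1 and Foxo3 encode the FoxO transcription factors themselves. The lead probe set of Foxo1 (1416982_at) read 224, 302 and 358 in DMSO, 245, 323 and 410.3 with LY294002, 272, 392 and 369 with UO126, 271, 315 and 412 with SB202190, and 445, 577 and 493 with TSA. The arrays of the first 4 groups overlapped, and those of TSA lay above them all. With TSA the log2 change was 0.80 ± 0.21 (limma adjusted p = 0.00483). The other 2 tested probe sets also rose, 1416983_s_at by 0.98 ± 0.12 (limma adjusted p = 4.75e-06) and 1416981_at by 0.56 ± 0.16 (limma adjusted p = 0.00739). The suffix of 1416983_s_at marks probes that can match more than 1 transcript.

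With LY294002 the 3 tested Foxo1 probe sets had log2 changes of 0.14 ± 0.21 (limma adjusted p = 0.737), 0.35 ± 0.12 (limma adjusted p = 0.085) and 0.15 ± 0.16 (limma adjusted p = 0.612). For the lead probe set the 95% interval ran from -0.31 to 0.59. Foxo3 passed no comparison with DMSO. Its lead probe set (1434831_a_at) read 275, 384 and 292 in DMSO, 372, 391 and 366 with LY294002, 241, 342 and 208 with UO126, 387, 346 and 298 with SB202190, and 313, 315 and 334 with TSA. DMSO replicate 2 was as high as the LY294002 arrays, and the log2 change with LY294002 was 0.26 ± 0.16 (limma adjusted p = 0.343), with a 95% interval from -0.08 to 0.60. With TSA it was 0.03 ± 0.16 (limma adjusted p = 0.88).

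Sesn3 encodes a sestrin, a stress-induced protein that restrains mTORC1 and is a known FoxO target. Its lead probe set (1449303_at) read 474, 556 and 528 in DMSO, 519, 439 and 466 with LY294002, 462, 523 and 388 with UO126, 667, 724 and 575 with SB202190, and 996, 996 and 1109.6 with TSA. The TSA arrays were above all others and the SB202190 arrays above those of DMSO, while the LY294002 arrays overlapped DMSO. With TSA the log2 change was 0.99 ± 0.12 (limma adjusted p = 3.03e-06), and the second probe set, 1453313_at, gave 0.98 ± 0.15 (limma adjusted p = 4.15e-05). With LY294002 the lead probe set changed by -0.13 ± 0.12 (limma adjusted p = 0.53). Its 95% interval, -0.38 to 0.11, does not reach the estimates for Insr, Igf1r, Irs1 or Ptpn13, and differences between genes were not tested. With SB202190 the value was 0.33 ± 0.12 (limma adjusted p = 0.153).

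**Figure D2:**
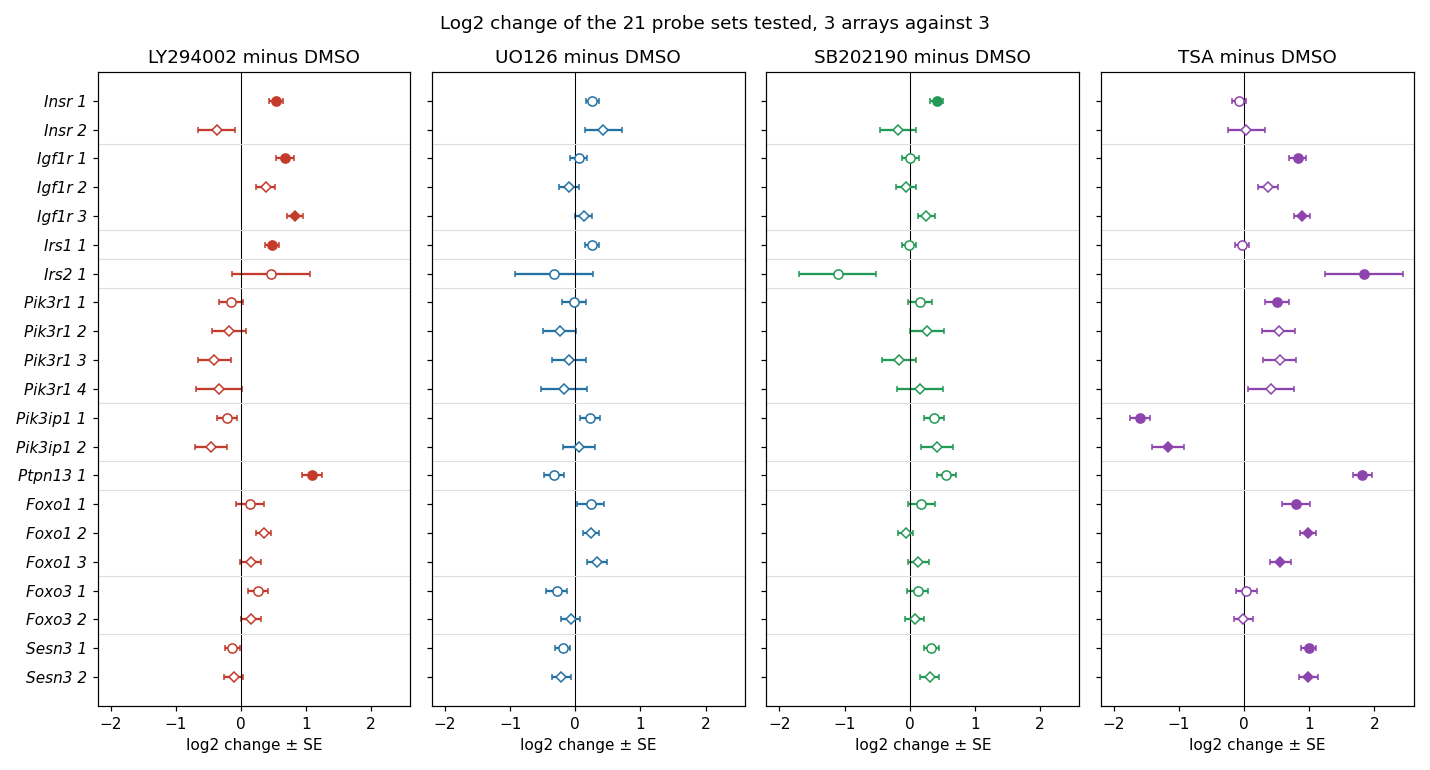
Log2 change against DMSO of each of the 21 probe sets tested, with its SE, for the 4 inhibitors (3 arrays against 3). Numbers after a gene name count its probe sets from the brightest, circles are lead probe sets, diamonds the others, and filled symbols passed the limma test at an adjusted p under 0.05. The second Insr probe set lies to the left of 0 with LY294002 while the lead one lies to the right.

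UO126 changed none of these genes past the threshold. Of the 21 probe sets 0 rose and 0 fell by the limma test, where 1.36% and 1.32% of all probe sets did (over genes 0 and 0 of 10, beside 1.88% and 1.57%). Among the members 3 probe sets had an unadjusted p under 0.05, the lead probe sets of Insr, Irs1 and Ptpn13. The first 2 were higher and Ptpn13 lower than in DMSO. The share of all probe sets under that unadjusted level was not computed, so the count of 3 has no background beside it. With the block on replicate number the count of members stayed 0, while that of the whole array went from 584 to 1032. SB202190 raised 1 of the 21 probe sets, that of Insr, and lowered 0, where 1.53% and 1.31% of all probe sets did (over genes 1 and 0 of 10, beside 2.01% and 1.51%). Over genes, 4 of 10 had all SB202190 arrays above all DMSO arrays (Insr, Pik3ip1, Ptpn13 and Sesn3), compared with 13.8% of all genes tested.

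TSA changed most of the genes. Against DMSO, 6 of 10 rose (Igf1r, Irs2, Pik3r1, Ptpn13, Foxo1 and Sesn3) and 1 fell (Pik3ip1), and over all genes tested 30.6% rose and 28.4% fell. By probe sets 10 of 21 rose and 2 fell, with 28.1% and 26.6% in the background. Since so large a share of all genes passed the threshold with TSA, a call in this comparison sets a gene apart less than a call with the other inhibitors. The median log2 change of the 10 genes was 0.65, and that of all genes 0.001. Insr, Irs1 and Foxo3 had log2 changes between -0.08 and 0.03 with TSA. The summed markers of chondrocytes, skeletal muscle (301 to 387 against 655 to 1238), fibroblasts and osteoblasts (12824 to 14630 against 14934 to 21173) and macrophages (551 to 649.8 against 711 to 823) were all lower on the TSA arrays than on any DMSO array. Such sums weigh the brightest probe sets most, and single markers did not all follow them. The macrophage marker Cd68 averaged 68.0 in DMSO and 292 with TSA, and Postn of the fibroblast and osteoblast list 609 and 726. Col2a1 was near level, at 5700 and 5634. The part of these cell types in the changes of the 10 genes was not tested.

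The 6 pairs of inhibitors were compared directly, in the same model and with p-values adjusted over all probe sets within each pair. The pairs of UO126 with TSA and of SB202190 with TSA are not described in full here. Values are those of lead probe sets unless another probe set is named. LY294002 differed from UO126 in Igf1r, higher by 0.63 ± 0.13 on the log2 scale (limma adjusted p = 0.0115), and in Ptpn13, higher by 1.42 ± 0.15 (limma adjusted p = 9.04e-05). These were 2 of 10 genes, with 4.36% of all genes higher in that pair and 3.82% lower. The Igf1r call was lost without UO126 replicate 2 (adjusted p = 0.0557). Foxo3 was higher with LY294002 than with UO126 by 0.55 ± 0.16 (limma adjusted p = 0.0545), which missed the threshold, and passed with the block on replicate number (adjusted p = 0.0209). Its second probe set, 1434832_at, differed by 0.23 ± 0.15 (limma adjusted p = 0.404), with overlapping arrays. For Insr and Irs1 the 2 inhibitors differed by 0.28 (95% interval 0.06 to 0.51, limma adjusted p = 0.126) and 0.22 (-0.01 to 0.45, limma adjusted p = 0.254), so the rise with LY294002 in those genes was not shown to differ from the value with UO126. The second Insr probe set, 1450225_at, went the other way, by -0.80 ± 0.28 (limma adjusted p = 0.109). Its LY294002 arrays were all below its UO126 arrays.

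LY294002 and SB202190 differed in 5 of 10 genes, with 3.61% of all genes higher and 3.77% lower. Igf1r was higher with LY294002 by 0.67 ± 0.13 (limma adjusted p = 0.00754), Irs1 by 0.48 ± 0.11 (limma adjusted p = 0.0158) and Ptpn13 by 0.53 ± 0.15 (limma adjusted p = 0.0457). Pik3ip1 was lower with LY294002 by -0.58 ± 0.16 (limma adjusted p = 0.0355) and Sesn3 by -0.46 ± 0.12 (limma adjusted p = 0.027). All of these calls but that of Igf1r were lost when some single arrays were left out, while the log2 differences kept their sign. They ranged from 0.44 to 0.55 for Irs1, 0.42 to 0.60 for Ptpn13, -0.73 to -0.50 for Pik3ip1 and -0.55 to -0.39 for Sesn3. Irs1 missed the threshold without LY294002 replicate 3, SB202190 replicate 1 or SB202190 replicate 3 (adjusted p up to 0.068), Ptpn13 without any 1 of the 6 arrays (up to 0.177), Pik3ip1 without LY294002 replicate 1 or 3 or SB202190 replicate 2 or 3 (up to 0.134), and Sesn3 without LY294002 replicate 2 or 3 or SB202190 replicate 1 or 2 (up to 0.121). Without any 1 array Igf1r still passed. Of the second probe sets, that of Pik3ip1 passed (-0.88 ± 0.24, limma adjusted p = 0.0449) and that of Sesn3 did not (-0.42 ± 0.15, limma adjusted p = 0.12). Insr was 0.13 higher with LY294002 than with SB202190 (95% interval -0.09 to 0.36, limma adjusted p = 0.541). Its second probe set had the opposite sign, at -0.19 ± 0.28 (limma adjusted p = 0.78).

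TSA stood apart from LY294002 in 7 of the 10 genes, with 29% of all genes higher with LY294002 and 29.4% lower. Insr was higher with LY294002 by 0.62 ± 0.11 (limma adjusted p = 0.000136), Irs1 by 0.51 ± 0.11 (limma adjusted p = 0.000979) and Pik3ip1 by 1.39 ± 0.16 (limma adjusted p = 2.05e-06). The second Insr probe set did not bear out the Insr difference, at -0.40 ± 0.28 (limma adjusted p = 0.256). Ptpn13, Foxo1, Sesn3 and Pik3r1 were higher with TSA, by 0.65 to 1.12 on the log2 scale, and Foxo1 missed the threshold without LY294002 replicate 1 (adjusted p = 0.0914) or TSA replicate 2 (adjusted p = 0.0687). Igf1r, which rose with both, differed between them by -0.14 (95% interval -0.43 to 0.15, limma adjusted p = 0.406), and passed only without TSA replicate 1 (adjusted p = 0.0433). Irs2 differed by -1.37 ± 0.60 (limma adjusted p = 0.0656), with all LY294002 arrays below all TSA arrays, and passed with 16 added to every signal (adjusted p = 0.00528), with signals under 50 set to 50 (adjusted p = 4.21e-07) and in the 2 groups alone (adjusted p = 0.000216). UO126 and SB202190 differed in 2 of 10 genes, with 4.99% of all genes higher and 4.78% lower with UO126. Ptpn13 was lower with UO126 by -0.89 ± 0.15 (limma adjusted p = 0.00143) and Sesn3 by -0.52 ± 0.12 (limma adjusted p = 0.0103), the latter not past the threshold without UO126 replicate 3 (adjusted p = 0.0589) or SB202190 replicate 2 (adjusted p = 0.0578).

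Ordered by mean signal, the groups differed from gene to gene. Insr ran from LY294002 through SB202190, UO126 and DMSO to TSA, and Irs1 from LY294002 through UO126, DMSO and SB202190 to TSA, with no neighbouring groups differing past the threshold. In Igf1r TSA and LY294002 stood over UO126, SB202190 and DMSO, and within each of these 2 sets no neighbours differed past the threshold. In Ptpn13 TSA stood over LY294002 (limma adjusted p = 0.000739) and LY294002 over SB202190, the latter a call lost in 10 of 16 alternatives, while SB202190, DMSO and UO126 followed with no neighbours differing past the threshold. In Sesn3 TSA stood over SB202190 (limma adjusted p = 0.00018), and in Pik3ip1 TSA stood under LY294002 (limma adjusted p = 2.05e-06), the lowest of the other groups.

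Of 48 other genes of the insulin, PI3K, Akt and mTOR pathway 40 were tested. With LY294002 6 rose and 2 fell, where 5.63% of all genes rose and 3.84% fell, with a median log2 change of 0.08. Igf1, a ligand of Igf1r, read 572, 532 and 429 in DMSO and 1142, 857 and 846 with LY294002, a log2 change of 0.89 ± 0.19 (limma adjusted p = 0.0101). Igf1, Igf1r and the adaptor Irs1 were thus each higher with this inhibitor. Igf2, the other insulin-like growth factor on the list, had a log2 change of 0.06 ± 0.18 (limma adjusted p = 0.875). Mtor, the kinase of both mTOR complexes, rose by 0.41 ± 0.08 (limma adjusted p = 0.00749), Inpp5k, a lipid 5-phosphatase, by 0.49 ± 0.13 (limma adjusted p = 0.0274), and Pik3ca, the catalytic subunit p110α, by 0.40 ± 0.11 (limma adjusted p = 0.0416).

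The 2 pathway genes that fell with LY294002 were Pik3r3 and Grb14. Pik3r3, the regulatory subunit p55γ, read 194, 169 and 168 in DMSO and 107, 83.2 and 88.8 with LY294002, a log2 change of -0.94 ± 0.15 (limma adjusted p = 0.00185). Grb14, an adaptor that binds the activated insulin receptor and inhibits it, read 434, 427 and 448 in DMSO, 255, 312 and 254 with LY294002, and 145, 179.8 and 189 with SB202190. All arrays of both inhibitors were below all DMSO arrays, with log2 changes of -0.68 ± 0.12 (limma adjusted p = 0.0036) and -1.36 ± 0.12 (limma adjusted p = 1.39e-05).

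With UO126 1 pathway gene rose and 0 fell, a share near the 1.88% and 1.57% of all genes, and this was Deptor, an inhibitor of mTOR, with a log2 change of 0.47 ± 0.08 (limma adjusted p = 0.00556). With SB202190 Mtor rose by 0.36 ± 0.08 (limma adjusted p = 0.0261) and Grb14 fell, the 2 genes that passed of 40, where 2.01% of all genes rose and 1.51% fell. With TSA 20 rose and 10 fell, where 30.6% of all genes rose and 28.4% fell, with a median of 0.26. Igf1 read 93.7, 101 and 60.1 with TSA, a fall of 6.13-fold (log2 change -2.62 ± 0.19), while its receptor Igf1r rose. Pdpk1, the kinase that phosphorylates Akt, rose 2.15-fold, Ptpn1, a phosphatase of the insulin receptor, 1.94-fold and Phlpp1, a phosphatase of Akt, 1.76-fold. Irs4 read 12.3, 19.5 and 17.6 in DMSO and 80.1, 104 and 77.8 with TSA, so that its rise, like that of Irs2, started from under 50. Irs4 and Sh2b2 (mean 22.5 in DMSO and 52.8 with TSA) reached a mean of 50 only with TSA. They entered the test through the group in which they were high, so their direction with TSA carries no information in these counts.

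Of 36 other genes described as FoxO-regulated 29 were tested. The list does not separate genes that FoxO raises from genes that it lowers, so its counts give no direction of FoxO activity. With LY294002 7 rose and 1 fell, beside the same 5.63% and 3.84% of all genes, and the median log2 change was 0.16. Besides Klf2 and Txnip these were, among others, the growth arrest gene Gadd45a, from 133, 149 and 148 to 247, 212 and 214 (log2 change 0.65 ± 0.13, limma adjusted p = 0.00699), and the cyclin Ccng2, from 247, 236 and 192 to 371, 322 and 332 (0.61 ± 0.12, limma adjusted p = 0.00827). Rbl2, a relative of the retinoblastoma protein, rose by 0.42 ± 0.12 (limma adjusted p = 0.0438). The gene that fell was Ddit4, an inhibitor of mTORC1, from 469, 480.1 and 472 to 199, 199 and 242 (-1.16 ± 0.19, limma adjusted p = 0.00285).

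UO126 raised 2 and lowered 0 of the 29 FoxO-regulated genes, beside 1.88% and 1.57% of all genes, among them Bnip3, a mitophagy receptor, by 0.57 ± 0.13 (limma adjusted p = 0.0262). SB202190 raised Gadd45a, Rbl2 and Bnip3 and lowered Ddit4, 3 and 1 of 29 beside 2.01% and 1.51%, with a median change of 0.19 over the list. With TSA 18 rose and 3 fell, where 30.6% and 28.4% of all genes did, and the median was 0.76. Erbb3 and Fbxo32 of this list averaged at least 50 only with TSA, which admitted them to the test. Ddit4, which fell with LY294002 and SB202190, read 1154, 1115 and 864 with TSA. Sesn3 among the 10 genes, like Ddit4 a brake on mTORC1, did not rise with LY294002.

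**Figure D3:**
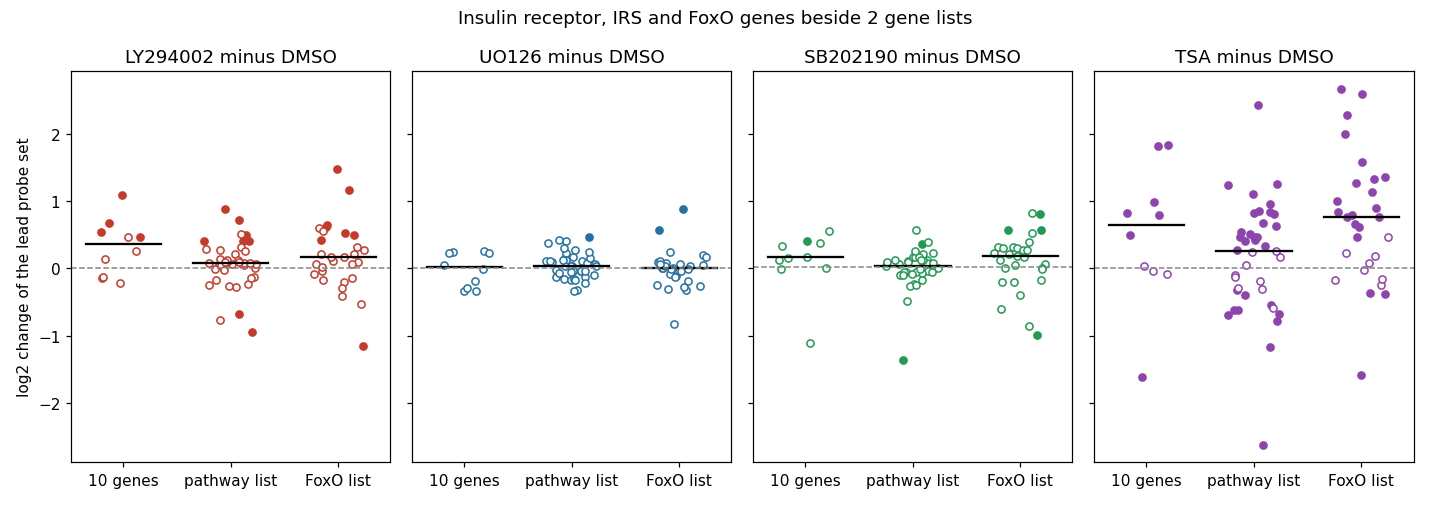
Log2 change against DMSO of the lead probe set of each of the 10 genes, of 40 tested pathway genes and of 29 tested FoxO-regulated genes, for the 4 inhibitors. Filled points passed the limma test at an adjusted p under 0.05, bars mark the list medians, and the dashed line is the median of all 11751 genes tested. With LY294002 the medians are 0.36, 0.08 and 0.16, and with TSA 0.65, 0.26 and 0.76.

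Genes with the most similar pattern were named over the 12 arrays of DMSO, LY294002, UO126 and SB202190, among 10645 genes, by Pearson r of log2 signal, as a description over arrays that share groups and scaling. For Insr they were Mpzl1 (r = 0.958) and Pbxip1 (r = 0.941), and for Igf1r Chmp2a (r = 0.938) and Zswim6 (r = 0.937). Irs1 was most like Synpo (r = 0.934) and Svep1 (r = 0.925), and Ptpn13 most like Fzd4 (r = 0.952) and Ltbp3 (r = 0.95). No member was among the 2 genes most like another member. The other 6 genes had their most similar genes at r of 0.841 to 0.948.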

How the data were processed

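RNA from 15 chondrocyte cultures was hybridised to Affymetrix MOE 430 2.0 arrays. Values were MAS5 signal intensities deposited by the authors, linear and scaled to a trimmed mean of 150 on every array; raw scans and detection calls were not used here. The median signal was 29.8 to 40.0, and 40.9% to 45.0% of probe sets reached 50. Tests used the log2 of the signal, with values under 1 raised to 1. Probe sets with a group mean of at least 50 in at least 1 of 5 groups were tested, without 64 control probe sets, which left 21765. A means model over all 15 arrays was fitted in limma 3.58.1 (R 4.3.3) with a variance trend. Tests were two-sided, adjusted by Benjamini-Hochberg within each comparison at 0.05, and folds come from the log2 change. The fit was tested on simulated data. The 3 arrays in each group limit the precision.

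Symbols came from the platform annotation (34958 probe sets with 1 symbol, 932 with several, 9211 with none), 99.4% of them found in RefSeq, and 1 Foxo3 probe set that also carries Gm38485 was left out. A gene was represented by its tested probe set with the highest mean log2 signal. For each list and comparison up to 4 genes with the smallest p and up to 2 further called genes in list order were taken, some of which are printed. The 2 genes most like each member were those with the highest r. The members and lists were chosen with earlier results of these data known. Markers of chondrocytes, adipocytes, skeletal muscle, macrophages, endothelium, and fibroblasts and osteoblasts were examined; the macrophage markers summed to 551 to 848 on all arrays.

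The study describes independent experiments, and the labels number the cultures 1 to 3. Deviations of same-numbered arrays from their group means correlated over 0.1 for every number in LY294002 against DMSO (0.16 to 0.42), UO126 against DMSO (0.22 to 0.42), LY294002 against UO126 (0.17 to 0.34) and SB202190 against TSA (0.14 to 0.19), and not in the other pairs, so a block on replicate number was fitted as an alternative. The other alternatives were quantile normalization, centring, filters, offsets and floors, no variance trend, other sets of arrays and leaving out each array. Python 3.11.15, pandas 2.3.3 and matplotlib 3.10.9 were also used.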

Additional observations from a re-analysis of the deposited data

How the results depend on the processing

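Of 40 results of the 10 genes against DMSO, 12 passed the threshold, and 7 of these passed it under every alternative tried. The exceptions were Insr and Irs1 with LY294002, Insr with SB202190, and Irs2 and Pik3r1 with TSA. When only the 2 groups compared were fitted, 3 member probe sets passed with LY294002, and Insr (adjusted p = 0.0634) and Irs1 (adjusted p = 0.0736) did not; this fit has fewer arrays. Without single arrays the member counts were 4 to 6 with LY294002, 0 with UO126, 0 to 1 with SB202190 and 11 to 13 with TSA. With SB202190 the count was 0 under quantile normalization, centring, no filter, the fit without the TSA arrays and the 2 groups alone, and 2 with the replicate block, where Ptpn13 passed (adjusted p = 0.0271). The cause was not tested. Pik3r1 with TSA missed the threshold under centring (adjusted p = 0.0528) and with no filter (adjusted p = 0.0547). Between LY294002 and SB202190, Pik3ip1 (adjusted p = 0.1) and Sesn3 (adjusted p = 0.168) missed it under centring, and, with adjusted p in parentheses, they or Ptpn13 also missed it elsewhere, Pik3ip1 (0.0602), Ptpn13 (0.0807) and Sesn3 (0.0531) with no filter, Ptpn13 (0.0592) and Sesn3 (0.0531) with no variance trend, Ptpn13 also with a floor of 50 (0.055) and without the TSA arrays (0.0686), and Pik3ip1 in the 2 groups alone (0.0837). Irs2 between LY294002 and TSA, groups whose replicate numbers did not pair the arrays, passed with the replicate block (adjusted p = 0.0399).

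Over the whole array the replicate block gave 3057 probe sets with LY294002, 1032 with UO126 and 1224 with SB202190, and the 2 groups alone gave 488, 245 and 181. Centring gave 280 with UO126 and 210 with SB202190, and no filter 410 with SB202190. A filter in 2 of 5 groups gave 5237 probe sets higher and 5634 lower with TSA, from 6118 and 5796, and the member count stayed at 12. Without single arrays the counts were 849 to 1908 with LY294002, 321 to 417 with UO126 and 213 to 541 with SB202190. Centring the arrays on their medians moved the median log2 change with LY294002 to 0.12 and its calls to 1021 higher and 170 lower, from 969 and 724, and the count of 5 member probe sets was the same. The replicate block changed no call of a lead probe set with LY294002, UO126 or TSA against DMSO.

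No called result changed sign. Values near 0 did so in 10 results that had not passed. Pik3r1 with UO126 became 0.0067 under centring, and Irs1 with SB202190 became 0.013 under quantile normalization and 0.032 under centring. Without single arrays the values ranged as follows. With LY294002 Pik3r1 lay between -0.32 and 0.027 and Foxo1 between -0.042 and 0.33. With UO126 Igf1r lay between -0.049 and 0.17 and Pik3r1 between -0.19 and 0.16. With SB202190 Igf1r lay between -0.068 and 0.050, Irs1 between -0.11 and 0.078, Pik3r1 between -0.016 and 0.34 and Foxo1 between -0.0055 and 0.33. With TSA Irs1 lay between -0.14 and 0.048 and Foxo3 between -0.061 and 0.18. The dim probe sets of Irs2, Pik3ip1 with TSA and the second of Insr lie near the threshold of 50, where the signal limits what can be measured.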

Other observations

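The 6 member probe sets under the signal threshold covered different ranges over the 15 arrays. Those of Igf1r ran from 22.8 to 62.0 (1446303_at) and from 25.3 to 48.9 (1452108_at), and the second Ptpn13 probe set, 1431791_a_at, from 17.8 to 42.5. The untested Foxo1 probe set, 1456529_at, ran from 1.23 to 5.4, and the untested Foxo3 probe set, 1450236_at, from 3.37 to 29.2. The probe set annotated to both Gm38485 and Foxo3, 1444226_at, ran from 17.7 to 56.5 with a median of 33.8.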
